A study of Gallus gallus with 22 samples.

Results

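FFAR4 (ENSGALG00010020368) and RBP4A (ENSGALG00010020357) are 2 of the 17007 genes counted in this chicken series. They were chosen because they lie side by side on chromosome 6, and they are described here in the proximal jejunum and the pancreas of broilers fed with or without sugarcane bagasse (SB), the fibrous residue left after sugarcane is pressed. The study named both genes from the pancreatic libraries used here, so the pancreatic diet test below is a description of that choice and not independent evidence. The other comparisons were not the test by which the study chose the genes, but they were run with earlier results of these data known. Those that set the SB effect in the pancreas against that in the jejunum include the pancreatic diet difference itself. They are not free of that choice, and neither is the tissue difference in SB broilers.

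The birds were Ross 308 male broilers, a commercial meat line, sampled on d 24. All of them ate a diet based on coarsely ground corn, to which either 0% SB (control) or 2% SB was added. There were 5 control and 6 SB libraries of the jejunum, and 6 control and 5 SB libraries of the pancreas. Each library of a tissue came from a different broiler, and by the methods both tissues were taken from 1 broiler of a pen. Outlier samples were left out by the authors, who judged them by how far they lay from their own diet group. By the methods, lower performance (pancreas) or higher RNA concentration (jejunum) backed that choice. The diet tests below are conditional on it. Libraries were named here by tissue, diet and the replicate number of their label. Replicate numbers of the 2 diets belong to different birds.

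FFAR4 encodes a G protein-coupled receptor of the cell surface that is activated by long-chain fatty acids. In mammals it is known from enteroendocrine cells of the gut, where fatty acids trigger the release of gut peptides, and from adipose tissue, macrophages and pancreatic islets. RBP4A encodes plasma retinol-binding protein, a small secreted lipocalin that carries retinol (vitamin A alcohol) from the liver through the blood to other tissues. In the intestine, retinol and long-chain fatty acids are both absorbed with dietary fat.

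On the GRCg7b assembly, RBP4A spans bases 21185245 to 21192899 of chromosome 6 and FFAR4 spans bases 21193387 to 21199152 (coordinates from the RefSeq gene table). The 2 spans are separated by 487 bases, and 0 other genes of that table lie between them. The nearest gene on the other side of RBP4A is PDE6C, a cone photoreceptor phosphodiesterase gene, 9075 bases away. The far end of FFAR4 overlaps MYOF, the myoferlin gene, by 483 bases. The library kit keeps strand, but whether the counting used it is not given in the sources used here, so reads in the overlap may have been counted for either gene or for neither. RBP4A also has a relative, RBP4 (RBP4B), on chromosome Z (bases 54215141 to 54220537), and reads shared by the 2 copies, if any, are uncertain. The gene map shows this arrangement to scale.

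**Figure D1:**
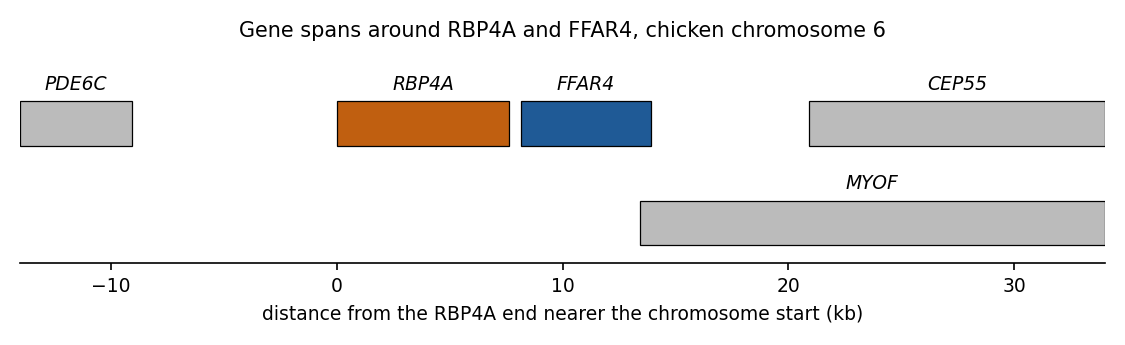
Spans of the genes around RBP4A and FFAR4 on chicken chromosome 6, in kilobases from the RBP4A end nearer the chromosome start; PDE6C, MYOF and CEP55 continue beyond the edges of the plot. The 2 coloured spans are 487 bases apart, and MYOF overlaps the last 483 bases of FFAR4.

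Libraries held 42540952 to 203039911 counts in the jejunum and 65957320 to 300479804 in the pancreas. Pancreatic SB libraries were deeper (80467800 to 300479804) than pancreatic control libraries (65957320 to 166039437). All these totals are larger than the mean clean reads that the paper gives for any group, and the reason was not tested. Levels are given as CPM (read counts scaled to a common library total), adjusted over the 22 libraries by the trimmed mean of M-values (TMM), which corrects for a few very abundant transcripts taking up much of a library. The TMM factors were 1.66 to 1.96 in the jejunum and 0.461 to 0.732 in the pancreas, so a level set across tissues rests on this scaling. CPM is not corrected for transcript length, and the 2 genes are therefore not compared with each other in level. Across all genes, log2 CPM correlated at 0.941 to 0.990 between libraries of one tissue and at 0.827 to 0.882 between tissues. The labelled tissues were not checked against their defining markers here, because the count table lists Ensembl identifiers and almost none of those markers could be linked to one. These are whole-tissue RNA measurements, so fewer cells of a type and less RNA per cell cannot be told apart.

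FFAR4 was higher in the jejunum than in the pancreas. In control broilers its level was 6.53, 9.19, 6.33, 3.45 and 5.08 CPM in jejunal replicates 1 to 5, which rest on 316 to 838 counts. In the pancreas of control broilers it was 0.256, 0.414, 0.253, 0.574, 0.227 and 0.306 CPM in replicates 1 to 6, which rest on 7 to 32 counts. Every jejunal library was above every pancreatic one. The lowest of these pancreatic values, replicate 5 with 7 counts, has a 95% exact Poisson interval of 0.0914 to 0.468 CPM. The interval covers counting error only and takes the counts as separate reads. The control mean was 6.11 ± 2.11 CPM (SD, n = 5) in the jejunum and 0.338 ± 0.133 CPM (SD, n = 6) in the pancreas. The log2 difference of pancreas minus jejunum was -4.14 (SE 0.44, edgeR quasi-likelihood test, adjusted p = 5.14e-08), a 17.6-fold lower pancreatic level. The pairing of tissues from the same bird was not used in that fit. With the bird as a block, over the 10 birds with both tissues, the difference was -4.05 (edgeR adjusted p = 4.68e-05). Of 15032 genes tested, 35.4% were higher in the control jejunum at an adjusted p under 0.05, and the tissues did not overlap in that direction for 23.9% of the genes with a count in any library.

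RBP4A was expressed at a low level in both tissues of control broilers. Jejunal replicates 1 to 5 had 0.873, 1.01, 0.993, 0.469 and 1.05 CPM, from 43 to 93 counts. Pancreatic replicates 1 to 6 had 0.614, 1.20, 2.69, 0.574, 1.40 and 0.841 CPM, from 24 to 117 counts. The 2 ranges overlapped, with 3 of the 6 pancreatic libraries above all jejunal ones. The means were 0.879 ± 0.239 CPM (SD, n = 5) in the jejunum and 1.22 ± 0.790 CPM (SD, n = 6) in the pancreas, and their difference was within the spread between broilers (log2 difference 0.47, SE 0.50, edgeR adjusted p = 0.409). In control birds a difference between the tissues was therefore called for FFAR4, higher in the jejunum, and not for RBP4A.

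**Figure D2:**
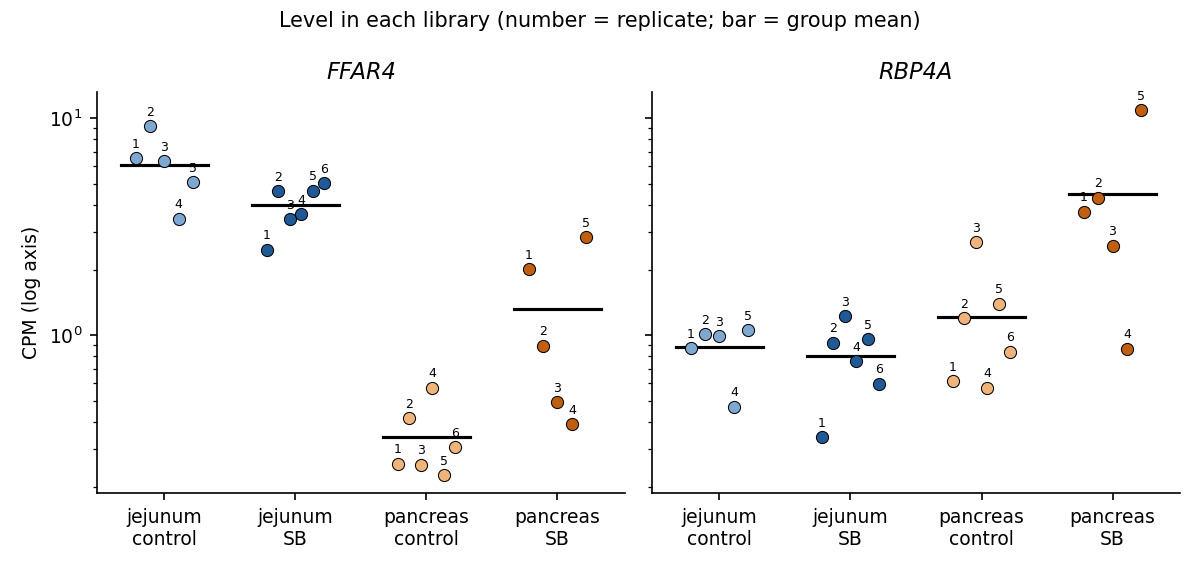
CPM of FFAR4 (left) and RBP4A (right) in each of the 22 libraries on a log axis, grouped by tissue and diet; each point is 1 library labelled with its replicate number, and the bar is the group mean. FFAR4 lies at 2.48 to 9.19 CPM in the jejunum and at 0.227 to 2.83 CPM in the pancreas, and in both panels SB replicates 1, 2 and 5 lie above all 6 control libraries of the pancreas.

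In the pancreas, both genes were higher in SB-fed broilers. FFAR4 was 2.02, 0.894, 0.493, 0.3895 and 2.83 CPM in SB replicates 1 to 5, from 36 to 289 counts. Replicates 1, 2 and 5 were above all 6 control libraries, while replicates 3 and 4 lay within the control range of 0.227 to 0.574 CPM. The mean was 1.33 ± 1.06 CPM (SD, n = 5), against 0.338 ± 0.133 CPM (SD, n = 6) in the controls. RBP4A was 3.70, 4.29, 2.59, 0.866 and 10.9 CPM in the same 5 libraries, from 80 to 624 counts. Replicates 1, 2 and 5 again exceeded all controls, and replicates 3 and 4 lay within the control range of 0.574 to 2.69 CPM. The mean was 4.47 ± 3.82 CPM (SD, n = 5), against 1.22 ± 0.790 CPM (SD, n = 6).

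The fitted log2 fold change of SB over control was 1.85 for FFAR4 (SE 0.56), a 3.61-fold higher level, with an unadjusted P of 0.00642 in edgeR and p = 0.0152 in a two-sided exact permutation test over the 11 libraries. For RBP4A it was also 1.85 (SE 0.58), with an unadjusted P of 0.00854 in edgeR and p = 0.0411 in the exact permutation test, where the smallest possible p is 0.00216. Neither passed adjustment over the 14116 genes tested (edgeR, adjusted p = 0.995 for both). In this comparison 2.00% of the genes were higher in SB at an unadjusted P under 0.05, and 0.659% also had a log2 fold change of at least 1, the rule by which the study named the pair. The permutation test compares means of log2 CPM, which differed by 1.58 for FFAR4 and 1.63 for RBP4A.

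The size of the pancreatic difference leaned on few SB libraries. With any 1 library left out, edgeR still called both genes (largest P 0.0245 for FFAR4 and 0.0287 for RBP4A). The exact permutation call for FFAR4 also held (largest p 0.0397). Without SB replicates 1 and 5, the 2 libraries with the most FFAR4, the log2 fold change was 0.80 for FFAR4 (edgeR P = 0.0672, exact permutation p = 0.0952) and 1.11 for RBP4A (edgeR P = 0.0685, exact permutation p = 0.179), which ended both calls. That choice of libraries was made after their values were seen, and leaving out the SB libraries with the most FFAR4 lowers its estimate in any case. Without SB replicate 5 alone, RBP4A was at 1.25 (edgeR P = 0.0287, exact permutation p = 0.0952). Replicate 5 was not alone in this: the exact permutation call for RBP4A was lost when any 1 of 9 of the 11 libraries was left out, SB replicates 1, 2, 3 and 5 and control replicates 1, 2, 4, 5 and 6.

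Other genes that the study listed as changed in the pancreas moved in the same libraries. Identifiers could be linked to 85 other listed genes that were higher in SB. Their median shift from the control mean was 2.49 log2 units in SB replicate 1, 2.21 in replicate 5 and 1.61 in replicate 2, but 0.81 in replicate 3 and 0.91 in replicate 4. In the control libraries it ranged from -0.26 to 0.36. These genes were picked from the same libraries, so their direction is fixed by that choice. Markers of other cells gave the following values in these libraries. SCTR, the secretin receptor gene, listed as a duct marker, was at 0.622 to 2.14 CPM in the control pancreas. In SB replicates 1 to 5 it was at 6.54, 5.76, 1.94, 1.33 and 4.97 CPM. SPP1 (osteopontin, also made by duct cells) was at 3.98 to 10.1 CPM in the control pancreas and 8.36 to 41.8 CPM in the SB pancreas. SCTR was higher in the control jejunum, at 5.42 to 8.98 CPM, so it is not particular to the pancreas here. SPP1 was at most 0.262 CPM in the control jejunum. SCTR and SPP1 are the 2 of 10 duct markers on the list that could be linked. Every marker named here could be linked only because the study listed it as changed in these libraries, so a higher level in SB follows from that choice. HPX, which encodes the liver protein hemopexin, ranged over 6.36 to 19.5 CPM in the control pancreas and 8.73 to 52.3 CPM in the SB pancreas. TTN, the titin gene of striated muscle, was at 96.3 CPM in SB replicate 5 against 5.60 to 10.7 CPM in the controls and 6.48 to 8.58 CPM in the other SB libraries. MYOM2, also a muscle gene, was at 0.206 to 1.27 CPM in SB and at most 0.601 CPM in controls. Both muscle genes were higher in the control jejunum, at 18.9 to 36.8 CPM for TTN and 1.34 to 9.81 CPM for MYOM2. They are the 2 of 10 striated muscle markers on the list that could be linked, and HPX is the 1 of 11 liver markers. For SPP1, HPX and TTN the highest pancreatic library was SB replicate 5, which was also the highest pancreatic library for FFAR4 and RBP4A. For SCTR and MYOM2 it was SB replicate 1, and MYOM2 was at 0.795 CPM in SB replicate 5. The part of these markers in the pancreatic difference was not tested.

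In the jejunum FFAR4 was lower in SB-fed broilers, and RBP4A gave no called difference. FFAR4 was 2.48, 4.61, 3.42, 3.61, 4.63 and 5.03 CPM in SB replicates 1 to 6. All 6 were below the control median of 6.33 CPM, and 2 of them were below every control library, although the ranges overlapped. The SB mean was 3.96 ± 0.962 CPM (SD, n = 6) against 6.11 ± 2.11 CPM (SD, n = 5). The log2 fold change of SB over control was -0.63 (SE 0.24), a 1.55-fold lower level, with P = 0.0210 and adjusted p = 1.0 in edgeR and p = 0.0563 in the exact permutation test. Among the 14488 genes tested in the jejunum, 0.904% were lower in SB at an unadjusted P under 0.05.

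The lower jejunal FFAR4 level was a narrow call. Without control replicate 2, the library with the most FFAR4, it was -0.43 (edgeR P = 0.0778, exact permutation p = 0.124), and with the spread estimated over both tissues in one fit it was -0.63 with an edgeR P of 0.109. For RBP4A, the jejunal SB levels were 0.340, 0.922, 1.23, 0.760, 0.961 and 0.599 CPM in replicates 1 to 6, from 32 to 335 counts, and they surrounded the control range of 0.469 to 1.05 CPM. The mean was 0.801 ± 0.308 CPM (SD, n = 6), and the log2 fold change was -0.15 (SE 0.30, edgeR P = 0.638, exact permutation p = 0.613). At these counts a fall of the size seen in FFAR4 lies within 2 standard errors of the RBP4A estimate.

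Whether the tissues responded differently was tested as an interaction, the SB effect in the pancreas minus the SB effect in the jejunum, in one fit over the 4 groups. For FFAR4 it was 2.54 log2 units (SE 0.58), the third smallest P of 15032 genes, with P = 2.6e-04 in edgeR and p = 0.00115 in an exact permutation of the diets within each tissue. For RBP4A it was 2.01 log2 units (SE 0.68), rank 73, with P = 0.0078 in edgeR and p = 0.0308 in the exact permutation test. That permutation test, over 213444 regroupings, was added after the values were seen. It regrouped each tissue separately, although most libraries share a bird with the other tissue, so its p is not exact for paired tissues. The comparison within birds, described below, gave exact permutation p = 0.0238 for FFAR4 and 0.0714 for RBP4A. Neither gene passed adjustment (edgeR, adjusted p = 1.0 for both). In this contrast 1.91% of all genes had a more positive SB effect in the pancreas at an unadjusted P under 0.05. The interaction and the comparison within birds both include the pancreatic difference by which the pair was named, so neither is free of that choice.

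For FFAR4 the interaction joined a pancreatic estimate of 1.85 with a jejunal estimate of -0.63, which was called in the jejunal fit but not in the fit over both tissues (edgeR P of 0.109), without control replicate 2, or by the exact permutation test. For RBP4A the pancreatic estimate was 1.85 and the jejunal estimate was -0.15. Opposite signs alone were common, at 52.0% of the 13788 genes tested in both tissues. An SB effect that was positive in the pancreas and negative in the jejunum, each at an unadjusted P under 0.05, was found for 5 of these 13788 genes (0.0363%). The reverse pattern was found for 2 genes. FFAR4 was 1 of the 5, by the fits within each tissue and with the limits on its jejunal call just given, and RBP4A was not. The only other one with a symbol was FAM179A, with log2 fold changes of 0.96 in the pancreas (edgeR P = 0.0332) and -1.40 in the jejunum (edgeR P = 0.00498), and exact permutation p = 0.0476 in both. It is named after its values were seen. For FFAR4 the pancreatic part of the opposite pattern was set by the choice of the pair, so 0.0363% overstates how rare it is. In the jejunum alone, 0.904% of the 14488 genes tested were lower in SB at an unadjusted P under 0.05. The study's linked genes that were higher in the SB pancreas numbered 75 in the jejunal test. At that threshold 1 of them was lower in the SB jejunum, FFAR4, and 3 were higher.

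Without pancreatic SB replicates 1 and 5 the interaction was 1.47 for FFAR4 (edgeR P = 0.0027, exact permutation p = 0.00758) and 1.27 for RBP4A (edgeR P = 0.061, exact permutation p = 0.138), and the call for RBP4A was lost. Without SB replicate 5 alone it was 1.38 for RBP4A (edgeR P = 0.0323, exact permutation p = 0.0676).

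**Figure D3:**
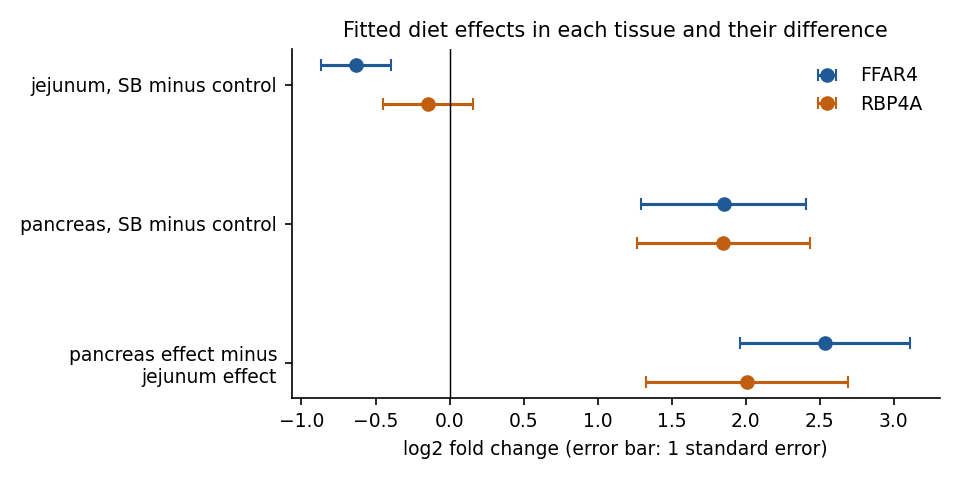
Fitted log2 fold changes of SB over control for FFAR4 and RBP4A in each tissue, and the pancreatic effect minus the jejunal effect; points are edgeR estimates and bars are 1 standard error. FFAR4 lies at -0.63 in the jejunum and 1.85 in the pancreas, and RBP4A lies at -0.15 and 1.85.

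The same question was put within birds, using the 10 library numbers that occur in both tissues (5 control, 5 SB). In control birds, pancreas minus jejunum was -4.54 to -2.54 log2 CPM for FFAR4, with a mean of -4.03 ± 0.84 (SD, n = 5). In SB birds it was -0.29, -2.34, -2.82, -3.50 and -0.82 for pancreatic replicates 1 to 5, with a mean of -1.96 ± 1.35 (SD, n = 5). FFAR4 stayed lower in the pancreas than in the jejunum of each of the 10 birds, and 3 of 5 SB birds had a smaller gap than every control bird. The mean gap differed by 2.08 log2 units between the diets (exact two-sided permutation test, p = 0.0238, smallest possible p 0.00794). For both genes this gap includes the pancreatic difference by which the pair was named, so its test is not independent evidence.

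For RBP4A, pancreas minus jejunum was -0.05 to 1.42 log2 CPM in control birds, with a mean of 0.46 ± 0.56 (SD, n = 5). In SB birds it was 3.37, 2.19, 1.74, -0.15 and 4.14 for pancreatic replicates 1 to 5, with a mean of 2.26 ± 1.65 (SD, n = 5). In 4 of 5 SB birds it was above every control bird. The difference of 1.80 log2 units between the diets did not pass the exact permutation test (p = 0.0714). The plot of both tissues by bird shows these gaps.

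**Figure D4:**
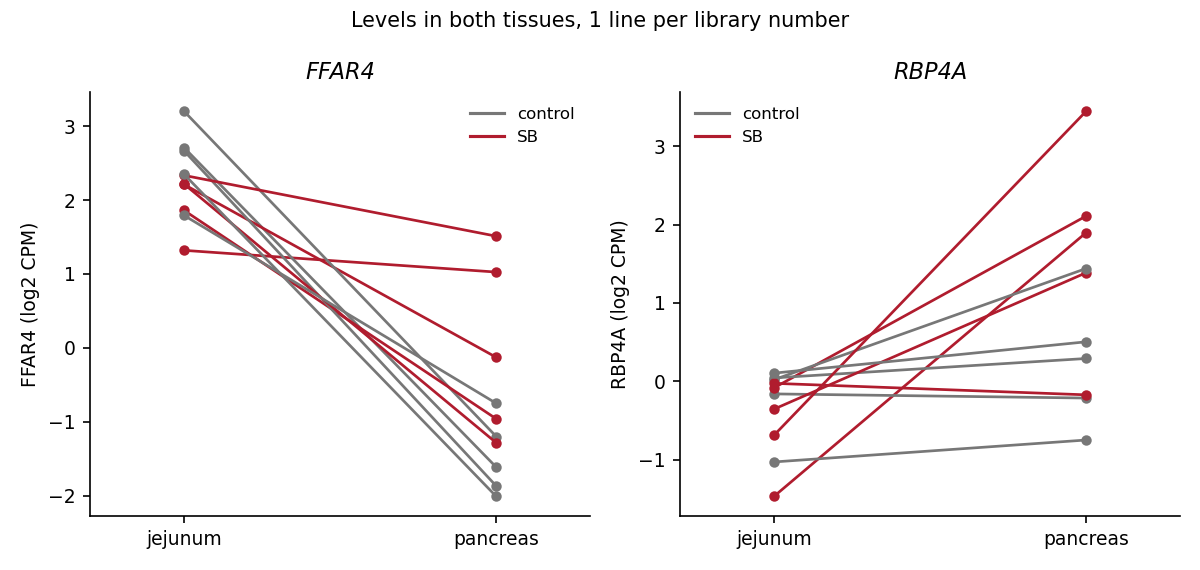
Level of FFAR4 (left) and RBP4A (right) in the jejunum and the pancreas, in log2 CPM, with 1 line for each of the 10 library numbers found in both tissues. All FFAR4 lines fall towards the pancreas, with a mean of -4.03 in control birds and -1.96 in SB birds, and 4 of 5 RBP4A lines rise in each diet.

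The order of the groups differed between the genes. FFAR4 ran from the control jejunum (6.11 CPM) through the SB jejunum (3.96 CPM) and the SB pancreas (1.33 CPM) to the control pancreas (0.338 CPM). In SB broilers it was still lower in the pancreas (log2 difference -1.60, SE 0.40, edgeR adjusted p = 0.00136), where 35.7% of genes were higher in the jejunum at an adjusted p under 0.05. With the bird as a block this FFAR4 difference was -1.92 (edgeR adjusted p = 0.00388). The 2 tissues now overlapped, since pancreatic SB replicate 5 (2.83 CPM) exceeded jejunal SB replicate 1 (2.48 CPM). RBP4A ran from the SB pancreas (4.47 CPM) through the control pancreas (1.22 CPM) and the control jejunum (0.879 CPM) to the SB jejunum (0.801 CPM), and neighbouring groups among the last 3 did not differ beyond their spread. In SB broilers RBP4A was higher in the pancreas than in the jejunum (log2 difference 2.48, SE 0.48, edgeR adjusted p = 1.2e-04). At that threshold 32.2% of genes were higher in the pancreas of SB broilers. The SB pancreas is the group in which the study named RBP4A as higher, so this difference is not free of that choice. Without pancreatic SB replicate 5 the RBP4A difference was 1.85 (edgeR adjusted p = 7.8e-04), and with the bird as a block it was 2.32 (edgeR adjusted p = 0.00282).

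No correlation of the 2 neighbours across broilers passed its permutation test. After the mean of each diet was subtracted, their log2 CPM correlated at r = 0.605 over the 11 jejunal libraries (Spearman rho = 0.282), with exact permutation p of 0.0572 and 0.406. Over the 11 pancreatic libraries r was 0.530 and rho 0.300, with exact permutation p of 0.191 and 0.440. In all, 10 relations were computed in this family, and the adjusted p of the 2 Pearson values were 0.191 and 0.382.

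With single libraries left out, r stayed at 0.397 to 0.759 in the jejunum and at 0.252 to 0.693 in the pancreas. Without the 2 libraries farthest from the median FFAR4 level, r fell to 0.335 in the jejunum (exact permutation p = 0.466) and to 0.081 in the pancreas (exact permutation p = 0.834). In the jejunum those were control replicate 2 and SB replicate 1, and SB replicate 1 had the lowest level of both genes among the SB libraries. Control replicate 4 was likewise the lowest control library for both. In the pancreas they were SB replicates 1 and 5. SB replicate 5 was the highest for both genes, and SB replicate 4 was the lowest SB library for both.

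Within single groups the relation took different signs. In the jejunum of SB broilers r was 0.518 and rho 0.086 (n = 6, exact permutation p = 0.299 and 0.919). In the pancreas of control broilers r was -0.490 and rho -0.714 (n = 6, exact permutation p = 0.343 and 0.136), with the highest FFAR4 level and the lowest RBP4A level in the same library, replicate 4. None of these passed the test. Correlations were computed over at least 6 libraries, so the groups of 5 are given by their values above and not by a correlation. The plot of one gene against the other shows the single libraries.

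**Figure D5:**
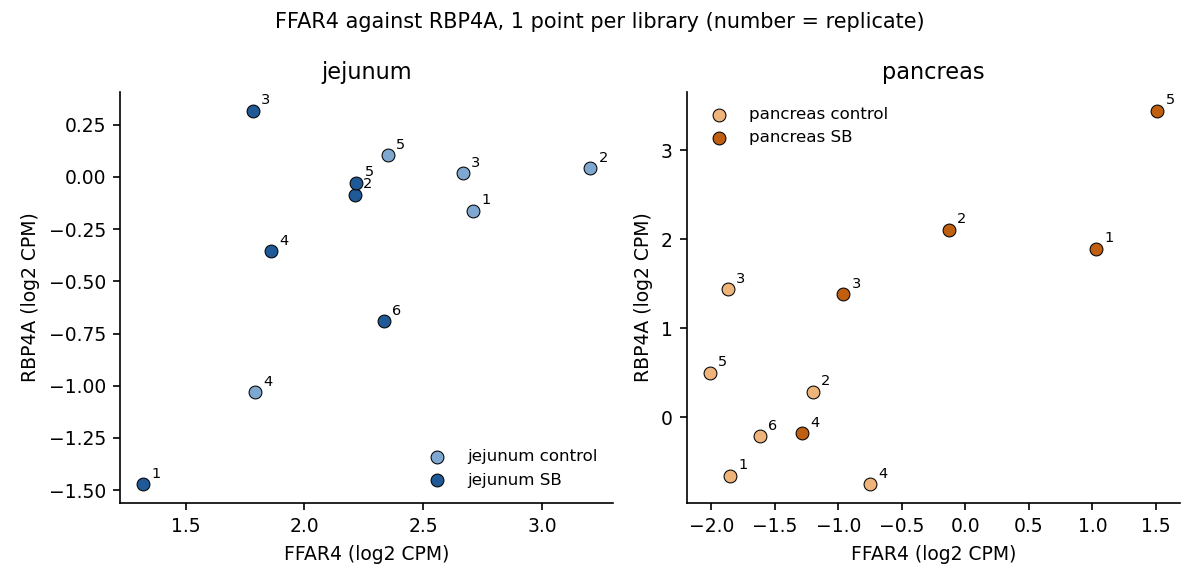
RBP4A against FFAR4 in log2 CPM for the jejunum (left) and the pancreas (right), with 1 point per library, coloured by diet and labelled with its replicate number. Jejunal SB replicate 1 at the lower left and pancreatic SB replicate 5 at the upper right stand away from the others, and r is 0.605 and 0.530 once the diet means are subtracted.

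The TMM factor of a library, which is also a divisor of its CPM, was set against each gene, and no relation passed adjustment over the family. For RBP4A in the jejunum, with diet means subtracted, r was -0.838 (n = 11, exact permutation p = 0.00686, adjusted p = 0.0686) and rho was -0.445 (p = 0.187). Jejunal FFAR4 gave r = -0.706 (exact permutation p = 0.0386, adjusted p = 0.191). Without control replicate 4 and SB replicate 1, which had the highest factors, r was -0.524 for RBP4A and 0.069 for FFAR4 (exact permutation p = 0.344 and 0.884). In the pancreas the same relation gave r = 0.486 for FFAR4 and -0.149 for RBP4A, and neither passed (exact permutation p = 0.116 and 0.665). These relations were added after the values were seen.

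For neither gene did a relation between the 2 tissues of a bird pass its test. Over the 10 birds, with diet means subtracted, r was -0.197 for FFAR4 (rho -0.006, exact permutation p = 0.609 and 1.0). For RBP4A it was -0.026 (rho -0.042, exact permutation p = 0.950 and 0.928).

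Other genes followed each member more closely than its neighbour did, which a search over this many genes and few libraries can give in any case. Likeness was Pearson's r of log2 CPM with diet means subtracted, over the 11 broilers of a tissue and genes with a mean of at least 1 CPM, and it is a description over libraries that share depth and composition. The neighbour itself was placed in the ranking whatever its mean, which was under that limit for FFAR4 in the pancreas (0.787 CPM) and for RBP4A in the jejunum (0.837 CPM). In the pancreas, RBP4A ranked 708 of 12561 genes by likeness to FFAR4, and FFAR4 ranked 777 of 12561 by likeness to RBP4A. In the jejunum the ranks were 721 and 2816 of 12536. High values were not rare. Among the genes tested for diet in the jejunum, 12.1% had r of at least 0.5 with FFAR4 and 27.0% with RBP4A. In the pancreas the shares were 7.56% and 7.11%.

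In the pancreas the 5 genes most like FFAR4 had r of 0.854 to 0.918, and the fifth was GALR1, a receptor of the neuropeptide galanin (r = 0.854). GPX2, a glutathione peroxidase of the gut epithelium in mammals, was 10th (r = 0.841). The 5 most like RBP4A had r of 0.878 to 0.932, and the fifth was AvBD10, an avian beta-defensin, an antimicrobial peptide (r = 0.878). SPP1 was 58th (r = 0.783). In the jejunum, the closest genes with a symbol were LAPTM4B, a lysosomal membrane protein gene, for FFAR4 (28th, r = 0.824) and MYO7B, a brush border myosin gene, for RBP4A (119th, r = 0.912). All of these symbols are known only for genes the study listed, so genes between them have no symbol here.

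Of 16 genes on a list of fatty acid sensing and gut peptide hormones, 1 could be linked, GHRL, the precursor of ghrelin. In the pancreas it was at 0.994 to 4.32 CPM in controls and 2.96 to 10.8 CPM in SB (log2 fold change 1.17, SE 0.39, edgeR P = 0.0115, adjusted p = 0.995, exact permutation p = 0.0216). In the jejunum its log2 fold change was 0.11 (SE 0.28, edgeR P = 0.704, exact permutation p = 0.794). It too was listed by the study from these libraries. GHRL was highest in pancreatic SB replicate 2 and lowest among the SB libraries in replicate 5, the library with the most FFAR4 and RBP4A. The lists on fat uptake, retinol carriage, retinoid metabolism and retinoid nuclear receptors had 0 linked genes and were not analysed here.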

How the data were processed

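Poly(A)-selected RNA was sequenced in 22 libraries. Per their methods, the authors made the read files with a DRAGEN conversion pipeline. They then used Trimmomatic for trimming, STAR for alignment to GRCg7b and HTSeq for gene counts. The submission notes also name DRAGEN. The authors deposited raw counts of 17007 Ensembl genes and log2 CPM values (TMM factors, prior count 2). Recomputed from the counts, 374154 of 374154 log2 values agree within 1e-06. All results come from the counts.

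In edgeR 4.0.16 (R 4.3.3), low genes were removed by filterByExpr (a count minimum of 10, a total minimum of 15), and SB minus control was tested within a tissue by quasi-likelihood (legacy = FALSE, robust = FALSE). The study's tables give control minus SB. Tissue differences and the interaction came from one fit over the 4 groups. Benjamini-Hochberg adjustment covered every gene of a fit. Standard errors were obtained as the log2 fold change over the root of F. At an unadjusted P under 0.05, edgeR called 543 genes in the pancreas, 286 in the jejunum and 521 for the interaction, and 0 in each after adjustment. DESeq2 1.42.0 called 15, 0 and 1 after adjustment (neither member), and limma-voom (limma 3.58.1) called 0. The fits were tested on simulated data, with changes only in genes of higher mean counts than FFAR4 has in the control pancreas. It is no check of calls at such low counts.

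Library numbers were taken to pair the tissues of a bird, from the sampling given in the methods. Deviations from group means correlated at -0.04 to 0.20 (median 0.08) for the same number and -0.16 to 0.11 (median -0.02) for different numbers.

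Symbols were linked to identifiers by matching the study's supplementary tables, which hold its fold changes and P-values, to a refit with its settings (41 of 41 jejunal and 123 of 125 pancreatic entries). Named genes are the members, linked genes of the fixed lists, and genes most like each member. Values of neighbouring genes, promoter sequences and most marker lists were not analysed here. Members and lists were chosen with earlier results of these data known. Alternatives were other scalings, filters, tools, blocks and each library left out.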

Additional observations from a re-analysis of the deposited data

Results flagged for a closer look

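An unadjusted interaction test in one fit over the 4 groups set the SB effect in the pancreas against that in the jejunum, and both genes passed it. Pancreas minus jejunum was 2.54 log2 units for FFAR4 and 2.01 log2 units for RBP4A, at unadjusted P of 2.6e-04 and 0.0078 in edgeR, and neither passed adjustment over all genes. That fit, like the permutation test of the interaction, ignored which libraries came from the same bird. With the bird as a block, over only the 10 birds with both tissues, edgeR P was 0.0106 for FFAR4 and 0.0315 for RBP4A. The same birds without the block gave edgeR P of 0.00111 and 0.0108. For RBP4A the within-bird difference did not pass (exact permutation p = 0.0714). Its interaction was 1.38 without pancreatic SB replicate 5 (exact permutation p = 0.0676) and 1.27, no longer called, without replicates 1 and 5 (exact permutation p = 0.138).

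Jejunal control replicate 4 stood apart from the other control libraries in RBP4A, at 0.469 CPM against 0.873 to 1.05 CPM in the other 4. It was the 1 case among 8 groups examined (2 genes in 4 groups). A single case among that many groups can arise by chance, and its rate was not computed here. This library also had the highest TMM factor of the jejunum (1.96) and the lowest FFAR4 level of its group (3.45 CPM).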

How the results depend on the processing

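Of 431 recomputed results for the 2 genes, 404 kept their direction and their side of the threshold (unadjusted P under 0.05 for diet and interaction, adjusted p for tissue differences, permutation p for the rest), 14 lost the call, 7 gained one and 6 changed sign. Without pancreatic SB replicates 1 and 5, chosen after seeing the data, the pancreatic diet effect was 0.80 for FFAR4 and 1.11 for RBP4A and the RBP4A interaction was 1.27, all no longer called. Jejunal FFAR4 was -0.63 in one fit over both tissues (edgeR P of 0.109), and its difference in mean log2 CPM was -0.60 with DESeq2 size factors (exact permutation p = 0.0455). With libraries left out in turn, jejunal FFAR4 ranged from -0.78 to -0.43 (lost without control replicate 2), and the same range held for its difference in means (called without control replicate 4 or SB replicate 6). The difference in means ranged from -0.386 to 0.037 for jejunal RBP4A (positive without SB replicate 1) and from 1.20 to 2.11 for pancreatic RBP4A, where 9 of 11 left-out libraries raised the exact permutation p above the threshold (largest 0.0952). The correlation of the genes in the jejunum ranged from 0.397 to 0.759, past the threshold without SB replicate 3, SB replicate 6 or control replicate 5. The gap within birds ranged from 1.33 to 2.40 for RBP4A (exact permutation p = 0.00794 without the bird of pancreatic SB replicate 4), and the correlation between tissues from -0.508 to 0.053 for FFAR4 and from -0.336 to 0.340 for RBP4A. The cause of these changes was not tested. With the bird as a block the interaction was 2.14 for FFAR4 and 1.83 for RBP4A, and no call changed. No pairing of birds of different diets by replicate number was seen. Deviations of same-numbered libraries correlated at -0.35 to 0.16 in the jejunum and -0.44 to 0.20 in the pancreas. In either tissue 0 of 5 control libraries correlated best with their number. This check could miss a pairing, since libraries taken as the 2 tissues of a bird correlated at only -0.04 to 0.20. With the replicate number as a block the pancreatic effect was 1.51 for FFAR4 and 1.56 for RBP4A, and jejunal FFAR4 was -0.68, all still called. In that fit 325 genes in the pancreas had P under 0.05 instead of 543. One fit over both tissues gave 821 genes there, and leaving out jejunal control replicate 4 gave 516 in the jejunum instead of 286. A filter of at least 1 CPM in 5 libraries removed FFAR4 from the pancreatic test. Depth limits FFAR4 most in the control pancreas, where it rests on 7 to 32 counts.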
